A study of Mus musculus with 8 samples.

Results

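The neurexins, the neuroligins and the adhesion proteins that work with them form the molecular bridge between the presynaptic and the postsynaptic side of a synapse. Here 9 genes of this system were followed: the neurexins Nrxn2 and Nrxn3, the neuroligins Nlgn1, Nlgn2 and Nlgn3, the leucine rich repeat proteins Lrrtm1, Lrrtm2 and Lrrtm3, and the contactin associated protein Cntnap2. They are 9 of the 27373 distinct gene names carried by the non-control probes of the array. Every non-control probe named for one of them was taken, which gave 15 probes of 41174. Of the 9 genes, 4 had 1 probe, 4 had 2 probes and 1, Cntnap2, had 3.

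Whole hippocampus was freshly dissected from 4 BTBR and 4 B6 mice, all males aged 5 months that had received no drug, and the RNA of each mouse was hybridized to 1 single-color Agilent array. BTBR stands for the inbred strain BTBR T+ Itpr3tf/J, which is studied as a mouse model of autism spectrum disorder, and B6 for wild type mice of the inbred strain C57BL/6J. The strain background entered for the BTBR samples is also C57BL/6J, while their title, source and genotype name BTBR. The strains differ throughout the genome and also in the fiber tracts that join the hemispheres, so no difference between them can be assigned to a single gene. The question addressed is whether transcripts of this trans-synaptic system differ in level between the hippocampi of the 2 strains.

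Neurexins are presynaptic membrane proteins made in long and short forms from separate promoters and in many further forms by alternative splicing. Neuroligins bind them across the cleft: Nlgn1 is found mainly at excitatory synapses, Nlgn2 at inhibitory synapses, and Nlgn3 at both. The LRRTM proteins are another family of postsynaptic neurexin ligands at excitatory synapses. Cntnap2, also called Caspr2, resembles neurexins in its extracellular domains, but it pairs with contactin 2 and gathers Kv1 potassium channels along the axon.

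Probes of Nrxn2, Nrxn3 and Cntnap2 are shown first, because the results compare pieces of these transcripts and the sequences say how the pieces relate. All are 60 bases long, are written 5′ to 3′ as in the array files, and carry mm9 coordinates. The 2 Nrxn2 probes lie on chromosome 19 at chr19:6532012-6532071 and chr19:6532047-6532106, and the 25 bases that they share are in capitals, so they are almost the same measurement made at 2 spots. The files list 3 RefSeq transcripts under each of them.
Nrxn2 A_51_P431831: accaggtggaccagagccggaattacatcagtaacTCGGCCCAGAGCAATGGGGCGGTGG
Nrxn2 A_51_P431827: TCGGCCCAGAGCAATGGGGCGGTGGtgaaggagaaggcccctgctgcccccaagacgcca

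The 2 Nrxn3 probes read different pieces of the gene on chromosome 12. A_52_P218458 spans chr12:90749150-90750418, which is 1269 genomic bases for 60 bases of probe, so it crosses a splice junction. A_52_P39644 lies at chr12:91570785-91570844, nearer the 3′ end of the transcript, and the files list 3 RefSeq transcripts under it against 2 under A_52_P218458. The Cntnap2 probe A_52_P215750, at chr6:46999241-46999300, is shown because the files list 1 RefSeq transcript under it and 2 under each of the other Cntnap2 probes.
Nrxn3 A_52_P218458: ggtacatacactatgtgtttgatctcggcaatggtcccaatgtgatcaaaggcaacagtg
Nrxn3 A_52_P39644: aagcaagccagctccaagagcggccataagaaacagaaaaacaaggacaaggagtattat
Cntnap2 A_52_P215750: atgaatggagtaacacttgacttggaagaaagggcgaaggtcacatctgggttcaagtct

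Before the results, 2 BTBR arrays need to be named, because marker genes of neighbouring brain regions stood apart on them. A list of 10 thalamic genes had a summed level of 17.04 (log2) on the array of BTBR mouse 1, against 14.05 to 14.85 on the other 7 arrays. A list of 6 striatal genes reached 15.68 on the array of BTBR mouse 2, 14.04 on that of B6 mouse 2 and 13.46 on that of BTBR mouse 1, while the other 5 arrays read 12.18 to 12.60. On the same 2 BTBR arrays the 10 markers of hippocampal neurons summed to 16.76 and 16.76, below the 17.35 to 17.85 of the other 6 arrays, 9 oligodendrocyte genes summed to 18.97 and 19.17 against 18.28 to 18.70, and 6 choroid plexus genes summed to 15.89 and 15.84 against 13.81 to 15.12. All 10 thalamic and all 10 hippocampal neuron genes, and 4 of the 6 striatal genes, were well above background on every array, and no gene of these 3 lists passed the limma test between the strains. Of the lists for interneurons, astrocytes, oligodendrocytes, microglia, endothelium and choroid plexus, 1 gene passed it, the microglial chemokine receptor Cx3cr1, at 1.41 (log2) above B6 in BTBR. The summed levels of 2 of these lists did not overlap between the strains. The 6 astrocyte genes summed to 18.59 to 18.68 in B6 and 18.24 to 18.57 in BTBR. The 6 microglial genes summed to 15.02 to 15.12 in B6 and 15.20 to 15.49 in BTBR. These sums do not describe every gene of a list. Among the microglial genes, BTBR minus B6 was 1.41 for Cx3cr1 and 0.16 for Tmem119, but -0.27 to -0.01 for Aif1, P2ry12, C1qa and Csf1r. Among the astrocyte genes it was -0.17 for Aldoc, the brightest on every array, 0.19 for Aldh1l1, and -0.26 to -0.06 for the rest. The part of these marker lists in the results below was not tested. Without BTBR mice 1 and 2 together, limma called 0 of the 15 member probes, against 5.54% of all probes tested. The differences of the member probes then ran from -0.54 to 0.30. Further values without these mice stand beside the results below that rest on them.

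**Figure D1:**
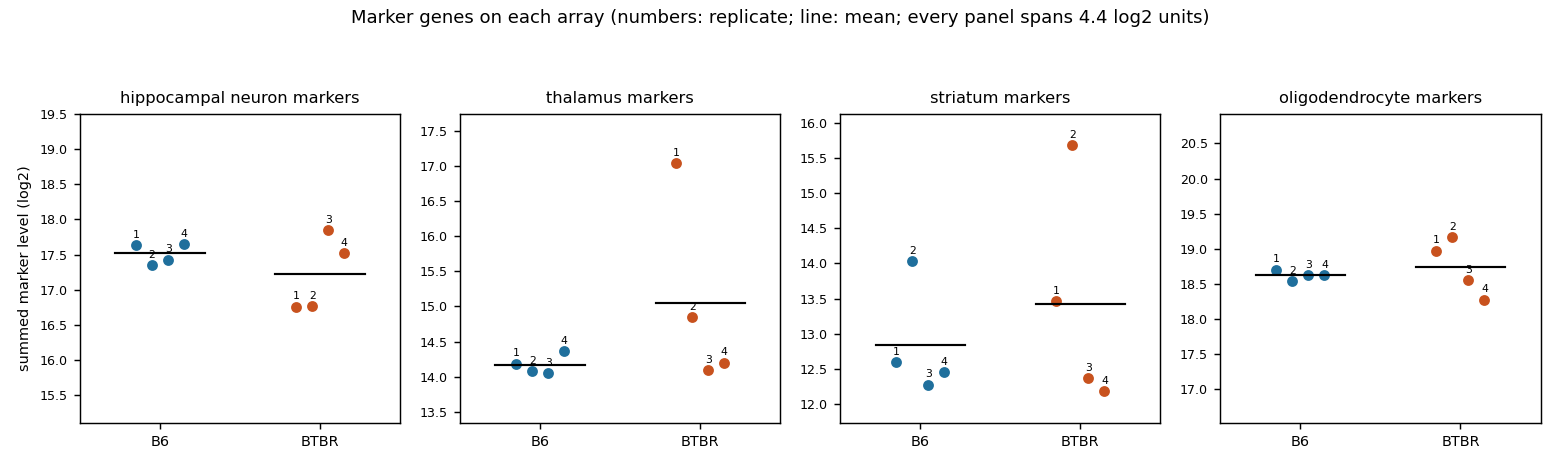
Summed level (log2, y axis) of 4 marker lists on each array, by strain (x axis); points are arrays numbered by replicate and lines are strain means. BTBR 1 stands highest for the thalamic list at 17.04, BTBR 2 for the striatal list at 15.68, and both lie lowest for the hippocampal neuron list.

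None of the 15 probes differed between BTBR and B6 at an adjusted p under 0.05 in limma, a linear model with moderated variances that was fitted to all 27981 probes passing the detection filter. Over those 27981 probes, 3.31% were called higher and 4.3% lower in BTBR, 7.61% in all, a share that would put about 1 call among 15 probes, and the 0 found say nothing particular about these genes. The rank product, the test used in the study, also called 0 of the 15, against 3.93% of all probes. At an unadjusted p under 0.05 limma found 1 member probe, that of Lrrtm1, against 18.5% of all tested probes. On every one of the 15 probes the BTBR and B6 arrays overlapped, whereas they were fully separated on 14.2% of all probes tested.

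The differences were small in both directions. All values below are normalized intensities on the log2 scale, and all differences are BTBR minus B6 on that scale. Of the 15 differences 9 lay above and 6 below 0, with a median of 0.0073 against 0.011 over all probes tested, and a median size of 0.088 against 0.101. Each probe's 95% interval, not adjusted for the number of probes, stayed inside 1 log2 unit either way, and 13 of the 15 stayed inside 1.5-fold. The exceptions were the probes of Lrrtm1 and Lrrtm3. In RNA from whole tissue, fewer cells of a type and less RNA per cell cannot be told apart.

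**Figure D2:**
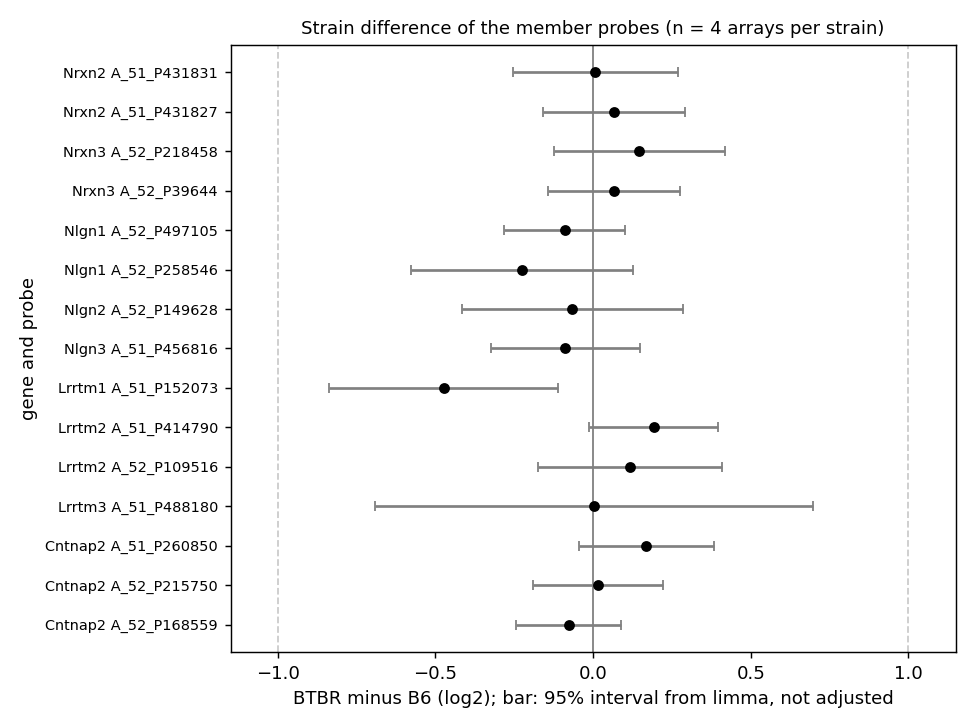
BTBR minus B6 difference (log2, x axis) of each of the 15 probes (y axis), with its 95% interval from limma, not adjusted, from 4 arrays per strain. The dashed lines mark 1 log2 unit; the Lrrtm1 interval alone leaves out 0, and the Lrrtm3 interval is the widest.

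Among the neurexins, Nrxn2 showed no called difference on either probe. Probe A_51_P431827 read 13.97, 14.18, 14.11 and 14.02 in B6 mice 1 to 4, and 14.40, 14.11, 13.98 and 14.06 in BTBR mice 1 to 4. BTBR mouse 1 was the highest of the 8, and the other 3 BTBR mice lay inside the B6 range. The means were 14.07 ± 0.09 and 14.14 ± 0.18 (SD, n = 4 each), a difference of 0.07 (SE 0.10, interval -0.16 to 0.29, limma adjusted p = 0.791).

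For the overlapping probe A_51_P431831 the strains lay as close. Its means were 13.85 ± 0.13 in B6 and 13.85 ± 0.22 in BTBR (SD, n = 4 each), a difference of 0.01 (interval -0.25 to 0.27, limma adjusted p = 0.985). Within each array the 2 probes differed by -0.16 to -0.36, and this gap did not separate the strains (exact permutation p = 0.2). BTBR mouse 1, the array with high thalamic markers, was again the highest at 14.16. Without BTBR mice 1 and 2 the difference was -0.05 for A_51_P431827 and -0.15 for A_51_P431831, with adjusted p of 0.833 and 0.524 in limma.

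Nrxn3, the other neurexin, likewise showed no called difference. Probe A_52_P39644, the more 3′ of the pair, read 10.10, 10.21, 10.09 and 10.42 in B6 and 10.14, 10.25, 10.40 and 10.29 in BTBR. All 4 BTBR values lay inside the B6 range, and the difference was 0.07 (SE 0.09, interval -0.14 to 0.28, limma adjusted p = 0.777). The junction probe A_52_P218458 read 9.57, 9.52, 9.72 and 9.70 in B6 and 9.61, 9.64, 10.14 and 9.73 in BTBR.

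On that junction probe 1 array, BTBR mouse 3, stood above the rest. The difference was 0.15 (SE 0.12, interval -0.12 to 0.42, limma adjusted p = 0.594), and 0.03 without that mouse. Without BTBR mice 1 and 2 it was 0.30 (limma adjusted p = 0.278). The gap between the 2 Nrxn3 probes within an array was -0.58 ± 0.16 in B6 and -0.50 ± 0.16 in BTBR (SD, n = 4 each), with an exact permutation p of 0.514, so no difference between the junction piece and the more 3′ piece was detected.

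On the postsynaptic side, no neuroligin probe was called. Nlgn1, the neuroligin of excitatory synapses, read 10.66, 10.67, 10.55 and 10.88 in B6 on its brighter probe A_52_P258546 (chr3:25330886-25330945). The same probe read 9.98, 10.53, 10.67 and 10.67 in BTBR. BTBR mouse 1 was the lowest by a clear margin, and BTBR mice 3 and 4 lay inside the B6 range. The difference was -0.23 (SE 0.16, interval -0.58 to 0.13, limma adjusted p = 0.516), and it was -0.06 without BTBR mouse 1 and -0.02 without BTBR mice 1 and 2.

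The other Nlgn1 probe, A_52_P497105, was designed on a single cDNA clone and lies apart from the first at chr3:26030753-26030812. It lay close to background, between 7.96 and 8.29 over the 8 arrays, and was the only one of the 15 that missed detection above background on an array, 1 of the B6 set. Its difference was -0.09 (interval -0.28 to 0.10, limma adjusted p = 0.654). The within-array gap between the 2 Nlgn1 probes did not separate the strains (exact permutation p = 0.543).

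Nlgn2, the neuroligin of inhibitory synapses, was measured by 1 bright probe, A_52_P149628 (chr11:69636993-69637052). Its values were 13.74, 14.23, 14.09 and 14.18 in B6 and 14.20, 14.00, 13.61 and 14.18 in BTBR. The lowest value of each strain came from 1 mouse, B6 mouse 1 and BTBR mouse 3, and the other 6 lay between 14.00 and 14.23. The difference was -0.07 (SE 0.15, interval -0.42 to 0.28, limma adjusted p = 0.874), and it was 0.06 without BTBR mouse 3.

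Nlgn3, present at both kinds of synapse and encoded on the X chromosome (chrX:98516457-98516516), read 11.16, 11.01, 11.28 and 11.22 in B6. In BTBR it read 11.10, 10.87, 11.33 and 11.03, so the ranges overlapped almost fully. The difference was -0.09 (SE 0.10, interval -0.32 to 0.15, limma adjusted p = 0.731). Since every animal was male, each carried 1 copy of the X chromosome.

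Lrrtm1 had the largest difference of the 15 probes. This postsynaptic neurexin ligand read 11.14, 11.11, 11.00 and 11.21 in B6 and 10.75, 10.17, 10.63 and 11.03 in BTBR on its single probe A_51_P152073 (chr6:77207492-77207551). BTBR mice 1, 2 and 3 lay below all 4 B6 mice, while BTBR mouse 4, at 11.03, lay just above the lowest B6 value of 11.00. The means were 11.12 ± 0.09 and 10.64 ± 0.36 (SD, n = 4 each), a difference of -0.47 (SE 0.16, interval -0.84 to -0.11), or 1.39-fold more signal in B6.

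That difference did not pass the test over all probes. The unadjusted p from limma was 0.0164 and the adjusted p 0.136, at rank 3374 of 27981 probes, and the exact permutation p was 0.0571, where 0.0286 is the smallest that 4 arrays against 4 can give. The size and the call turned on single animals. With BTBR mouse 2 left out the difference was -0.32 (limma adjusted p = 0.160), and without BTBR mouse 4 the difference was -0.60 with a limma adjusted p of 0.0400, and over all alternatives the adjusted p ran from 0.0400 to 0.437. The rank product gave a false positive estimate of 0.215 for a lower level in BTBR.

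The lowest Lrrtm1 value, 10.17, came from BTBR mouse 2, whose array also had high striatal and low hippocampal neuron markers. BTBR mouse 3, with the highest summed hippocampal neuron markers of all 8 arrays at 17.85, read 10.63, below every B6 mouse. The genes of that list did not move together on its array. Wfs1 read 15.67 against 14.20 to 14.52 in B6, and C1ql2 read 10.13 against 10.76 to 12.25. Neurod2 and Zbtb20 also lay above the B6 range, and the rest lay inside it. Without BTBR mice 1 and 2 the Lrrtm1 difference was -0.29 (limma adjusted p = 0.288). The part of the marker genes in this difference was not tested further.

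Lrrtm2, a close relative of Lrrtm1, was measured by 2 probes on chromosome 18. Probe A_52_P109516 (chr18:35369110-35369169) read 10.37, 10.46, 10.52 and 10.50 in B6 and 10.93, 10.58, 10.25 and 10.55 in BTBR. BTBR mouse 1 was highest and BTBR mouse 3 lowest, so the BTBR values enclosed the whole B6 range. The difference was 0.12 (SE 0.13, interval -0.18 to 0.41, limma adjusted p = 0.711), and it was -0.06 without BTBR mice 1 and 2.

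On the more upstream Lrrtm2 probe A_51_P414790 (chr18:35370856-35370915) the values were 10.01, 10.17, 10.24 and 10.23 in B6 and 10.56, 10.34, 10.22 and 10.30 in BTBR. Of the BTBR mice 3 lay above the B6 range, and mouse 3 lay inside it. The difference was 0.19 (SE 0.09, interval -0.01 to 0.40), with a limma adjusted p of 0.304 and an exact permutation p of 0.0857. Without BTBR mice 1 and 2 it was 0.10.

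Lrrtm3, the third LRRTM protein of the set, varied most between mice. Its probe A_51_P488180 (chr10:63392188-63392247) read 10.74, 11.33, 10.85 and 11.10 in B6 and 11.25, 11.85, 10.32 and 10.61 in BTBR. The BTBR mice held both the highest and the lowest value of the 8, and the strain means were both 11.01, with SDs of 0.26 in B6 and 0.68 in BTBR (n = 4 each). The difference was 0.00 (SE 0.31, interval -0.69 to 0.70, limma adjusted p = 0.997).

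The Lrrtm3 difference had opposite signs on the 2 slides. On slide 1, which held mice 1 and 2 of both strains, the difference was 0.52, and on slide 2, with mice 3 and 4, it was -0.51. The test of this change between slides gave a limma adjusted p of 0.480, and no probe of the array passed that test. BTBR mice 1 and 2 are also the mice with the marker genes described above, so the slide and these marker genes cannot be told apart here. Without both of them the Lrrtm3 difference was -0.54 (limma adjusted p = 0.158).

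**Figure D3:**
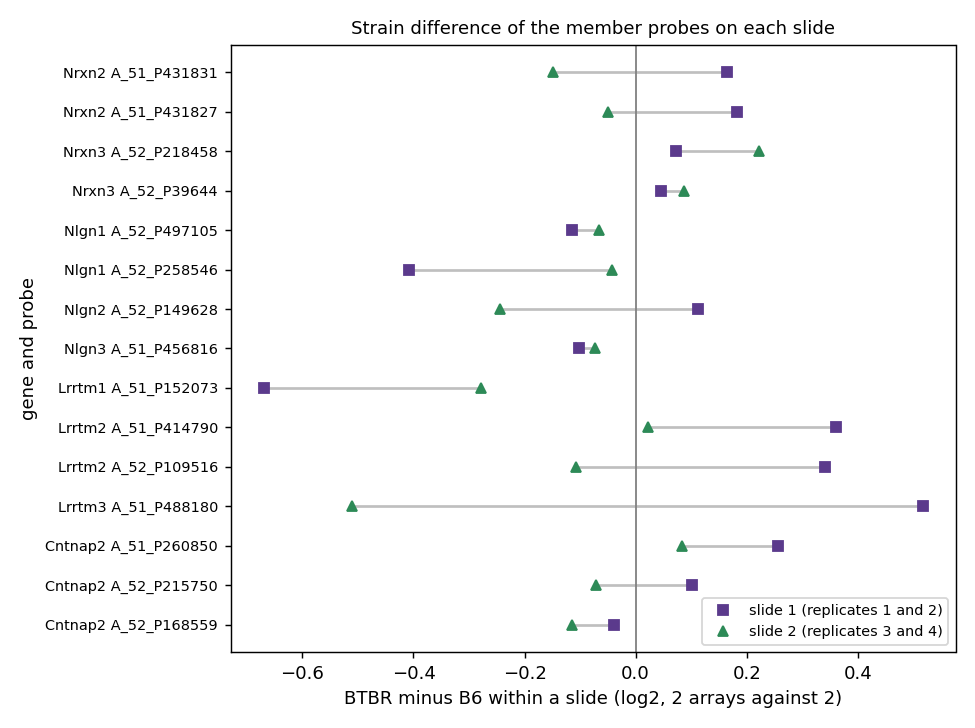
BTBR minus B6 difference (log2, x axis) of each probe (y axis), computed within slide 1 (squares, replicates 1 and 2) and within slide 2 (triangles, replicates 3 and 4), 2 arrays against 2. The Lrrtm3 probe runs from 0.52 to -0.51, and Lrrtm1 stays below 0 on both, at -0.67 and -0.28.

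Over the 15 probes, 9 kept 1 direction on both slides. These were both Nrxn3 probes, both Nlgn1 probes, the Nlgn3 and Lrrtm1 probes, the more upstream Lrrtm2 probe and 2 of the 3 Cntnap2 probes. Lrrtm1 had the largest difference on slide 1, -0.67, and kept a value of -0.28 on slide 2. With slide as a block in limma, 0 of the 15 probes were called, against 8.32% of all probes tested.

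Cntnap2, the axonal neurexin relative, was measured in 3 places of its transcript. The brightest probe, A_52_P168559 (chr6:47251040-47251099), read 13.38, 13.46, 13.35 and 13.61 in B6 and 13.39, 13.37, 13.43 and 13.30 in BTBR. The ranges overlapped, with B6 mouse 4 the highest and BTBR mouse 4 the lowest of the 8. The difference was -0.08 (SE 0.07, interval -0.24 to 0.09, limma adjusted p = 0.661).

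The other Cntnap2 probes gave similar results with other signs. Probe A_52_P215750, whose sequence is given above, read 9.24 ± 0.18 in B6 and 9.25 ± 0.04 in BTBR (SD, n = 4 each), a difference of 0.02 (interval -0.19 to 0.22, limma adjusted p = 0.954). Probe A_51_P260850 (chr6:47249076-47249135) read 9.68, 9.92, 9.76 and 9.92 in B6 and 9.89, 10.22, 9.93 and 9.92 in BTBR. BTBR mouse 2 was the highest there, and the difference was 0.17 (SE 0.09, interval -0.04 to 0.38, limma adjusted p = 0.400).

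Probes within Cntnap2 were also compared with each other, a comparison chosen after the values were seen. The gap of A_51_P260850 to A_52_P168559 within an array was -3.63 ± 0.08 in B6 and -3.38 ± 0.16 in BTBR (SD, n = 4 each), and its 8 values did not overlap between the strains. The exact permutation p was 0.0286, the smallest possible, and 0.2 after adjustment over the 7 pairs of probes compared within genes. No pair passed after adjustment, and the adjusted values of the 7 pairs ran from 0.2 to 0.543.

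**Figure D4:**
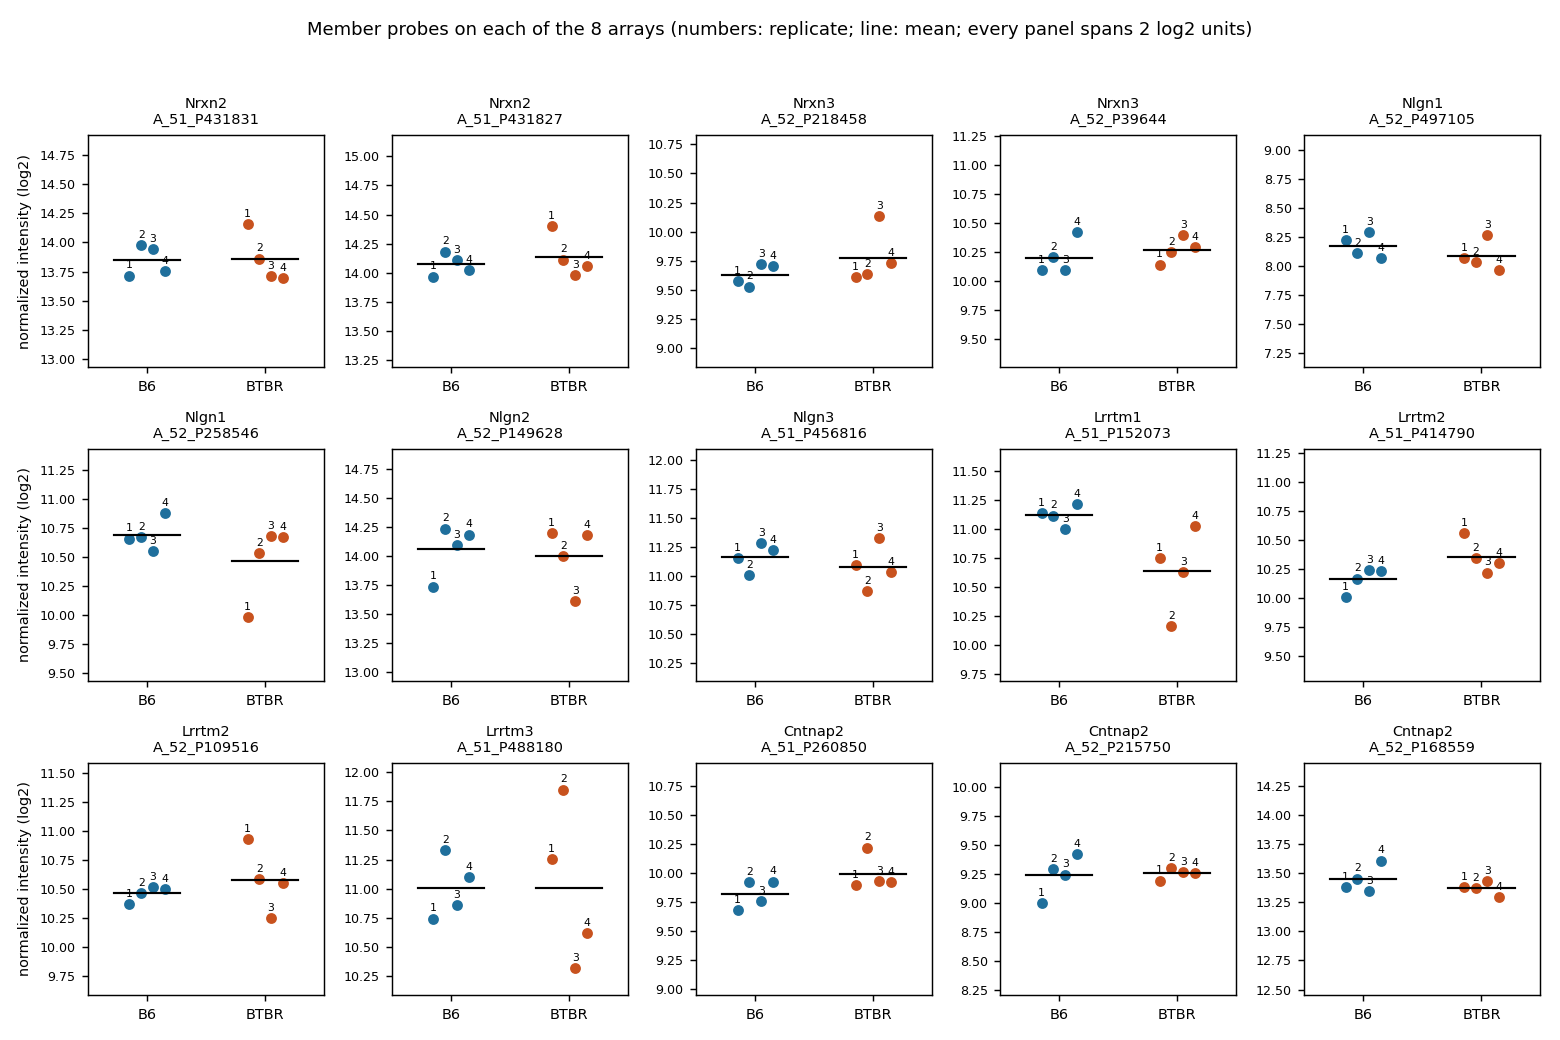
Normalized intensity (log2, y axis) of each of the 15 probes on the 4 B6 and 4 BTBR arrays (x axis); points are arrays numbered by replicate, lines are strain means, and every panel spans 2 log2 units. The strains overlap in all panels, and Lrrtm3 in BTBR has the widest spread, from 10.32 to 11.85.

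The spread between mice was described for each strain. The SD was larger in BTBR for 12 of the 15 probes, or 80% of them, against 66.6% of all probes tested. The median SD was 0.117 in B6 and 0.189 in BTBR over the 15 probes, and 0.106 and 0.138 over all probes. No test was run on this count, since the probes share the same 8 arrays. The mouse farthest from its strain mean was BTBR mouse 1 for 5 probes, BTBR mouse 3 for 4, BTBR mouse 2 for 3, B6 mouse 4 for 2 and B6 mouse 1 for 1.

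The genes that bind or anchor these proteins were described by 4 lists, with 86 genes on the array of which 84 had a tested probe. Of their 153 tested probes limma called 2 lower and 0 higher in BTBR, which is 1.31% against 7.61% of all probes, and 18, or 11.8%, had an unadjusted p under 0.05 against 18.5%. The rank product called 5 lower and 1 higher, 3.92% against 3.93% of all probes. The strains did not overlap on 9 of the 153, 7 of them higher and 2 lower in BTBR, which is 5.88% against 14.2% of all probes. The median difference over the 153 probes was 0.01, as over the whole array.

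The first call belonged to the fourth LRRTM protein. Lrrtm4, a postsynaptic partner of neurexins that also binds heparan sulfate proteoglycans, read 10.02, 9.96, 9.88 and 9.68 in B6 on probe A_52_P424206, and 7.49, 7.49, 7.73 and 7.68 in BTBR. The B6 arrays were all well above background and none of the BTBR arrays was, so only a bound can be given: with the processing used here the B6 signal was at least 4.52-fold higher, with a limma adjusted p of 1.05e-06 and measured means of 9.89 and 7.60. The size depended on how background and offset were handled: the measured difference was -2.29 here, -1.60 in the deposited matrix, which is 3.03-fold and below that bound, and -6.22 with the processed signal. Unlike the members, the strains did not overlap, and the probe was called with each single array left out. The other Lrrtm4 probe, A_51_P123892, designed on another transcript, did not rise well above background on a single array and could not be compared.

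The other call, Cadm3, a synaptic cell adhesion molecule of the immunoglobulin family, stood close to the threshold. Probe A_52_P553013 read 12.39, 12.68, 12.84 and 12.57 in B6 and 11.75, 11.45, 11.87 and 12.40 in BTBR, so BTBR mouse 4 overlapped B6. The difference was -0.75 (SE 0.19, interval -1.18 to -0.32), with a limma adjusted p of 0.0450 that rose as high as 0.130 with 1 array left out. The call was lost with the replicate block (limma adjusted p = 0.0721) and with median centring (0.0594), and without BTBR mice 1 and 2 the difference was -0.48 (0.209). Another Cadm3 probe, A_51_P244194, read 13.16 ± 0.06 in B6 and 13.20 ± 0.17 in BTBR (SD, n = 4 each), a difference of 0.04 (limma adjusted p = 0.868). The difference between the 2 probes was not tested.

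**Figure D5:**
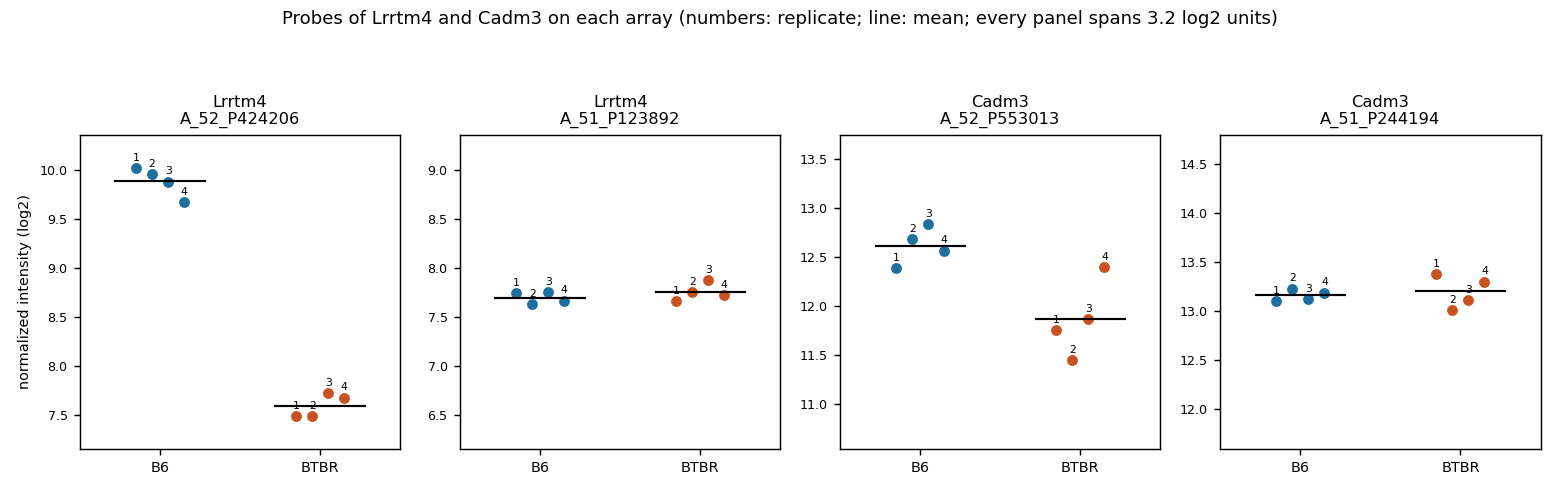
Normalized intensity (log2, y axis) of 2 probes each of Lrrtm4 and Cadm3 on the 4 B6 and 4 BTBR arrays (x axis); points are arrays numbered by replicate and lines are strain means. The first Lrrtm4 probe reads 9.68 to 10.02 in B6 and 7.49 to 7.73 in BTBR, and the other panels overlap.

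Among the 17 neurexin ligands outside the 9 genes, 16 had a tested probe. Limma called 1 of 26 probes, that of Lrrtm4, or 3.85% against 7.61% of all probes. An unadjusted limma p under 0.05 was found for 5 of the 26, or 19.2% against 18.5%. The rank product called 7.69% of them against 3.93% of all probes, and the list's median difference was 0.11. The nearest ligand to the threshold was C1ql2, a secreted ligand of mossy fiber synapses that is also on the hippocampal neuron list, at 11.65 ± 0.64 in B6 and 9.78 ± 0.99 in BTBR (SD, n = 4 each; limma adjusted p = 0.0542). The rank product called it lower, and limma did so with the replicate block (adjusted p = 0.0142), the slide block (0.0278) and median centring (0.0453), as well as without B6 mouse 2 (0.0430) or BTBR mouse 4 (0.0199). Its difference without BTBR mice 1 and 2 was -1.13 in place of -1.87 and was not called (0.205), and with B6 mouse 2 left out as well it was -1.43 and was called (0.0317). Without those mice another ligand, the calsyntenin Clstn2, was called higher on 1 of its 3 tested probes, A_51_P370423, at 0.68 (limma adjusted p = 0.0375), while the others gave 0.19 (0.614) and 0.39 (0.214). With all arrays the 3 Clstn2 probes gave 0.20, -0.35 and -0.04, and none was called. None of 26 probes of 12 intracellular partners and neuroligin inhibitors was called by limma or the rank product, and 1, or 3.85%, had an unadjusted p under 0.05 against 18.5% of all probes. This list holds Cask, which binds the neurexin tail inside the terminal, the LIN7 proteins, which bind Cask, and gephyrin, the scaffold of inhibitory synapses.

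For the contactins, other contactin associated proteins and Kv1 partners of Cntnap2, 0 of 27 probes from 15 tested genes were called by limma or the rank product, and 3, or 11.1%, had an unadjusted p under 0.05 against 18.5% of all probes. The strains did not overlap on 11.1% of the 27 against 14.2% of all. Closest was Kcna2, a Kv1 channel subunit gathered by Cntnap2, at 10.60 ± 0.07 in B6 and 10.88 ± 0.11 in BTBR (SD, n = 4 each), without overlap and with a limma adjusted p of 0.0504. In the deposited matrix Kcna2 was called, at 0.27 with a limma adjusted p of 0.0388, as it was without BTBR mouse 4 (0.0265), and without BTBR mice 1 and 2 its difference was 0.24 in place of 0.29 (0.222). Cntn2, the contactin that pairs with Cntnap2, was on probe A_52_P628702 at 12.56 ± 0.07 and 13.03 ± 0.32, also without overlap (limma adjusted p = 0.102), a difference of 0.46 that was 0.19 without BTBR mice 1 and 2 (0.269). Cntn2 was called with slide as a block (limma adjusted p = 0.0458) and without BTBR mouse 4 (0.0383). The other tested Cntn2 probes, A_52_P365732 and A_52_P651870, overlapped between the strains, with differences of -0.05 and -0.00 (limma adjusted p = 0.80 and 0.98). C1ql2, Clstn2, Kcna2 and Cntn2, like Gpc4 and Slitrk6 below, are named after their values were seen. In the list of 41 other trans-synaptic organizers, Cadm3 held the single limma call of 74 tested probes, 1.35% against 7.61% of all probes. An unadjusted limma p under 0.05 was found for 9 of the 74, or 12.2% against 18.5%, and the median difference was -0.02. The rank product called 4 probes of this list, 5.41% against 3.93% of all probes: Cadm3, both probes of the glypican Gpc4 lower, and Slitrk6, which is also on the thalamic list, higher. Slitrk6 read 12.18 on the array of BTBR mouse 1 and 8.56 to 9.78 on the other 7, and its difference of 1.22 (limma adjusted p = 0.361) was 0.23 without BTBR mice 1 and 2. The Gpc4 differences of -0.84 and -0.94 (limma adjusted p = 0.270 and 0.273) were -0.16 and -0.17 without them.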

How the data were processed

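RNA of 8 hippocampi was measured, 1 mouse per array; p-values measure the spread between these mice. The authors labeled RNA with Cy3, and the deposited intensity values (mean spot intensity, median local background, processed signal) and other values (spot flags) come, per the file headers, from version 10.7.3.1 of Feature Extraction (9.1 in the submitters' processing notes). The authors also deposited a matrix of log2 values, subtracted for background, quantile normalized and summarized over replicate spots by the median; its offset is not given in the sources used here. Probe coordinates are those of mm9, per the file headers.

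Here the mean intensity less the local background was floored at 0.5, raised by an offset of 50, put on the log2 scale and quantile normalized. Control spots and 154 probes with outlier flags were left out. Probes well above background on 75% or more of the arrays of a strain were tested in limma 3.58.1 (R 4.3.3), with strain as the only term and Benjamini-Hochberg adjustment, at 0.05. On each array 56.9% to 71.9% of probes were well above background, and precision is limited by how few arrays there are. The rank product used 100 permutations, with calls at an estimated false positive share of 0.05 or less. Exact tests were two-sided, over 70 assignments. Figures were drawn with Python 3.11.15, matplotlib 3.10.9 and pandas 2.3.3, and the limma step was tested on simulated data. A marker gene's level is that of its brightest probe, and a list's level is the log2 of the sum of normalized intensities after removing the offset.

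The members and lists were chosen with earlier results of these data known. Every probe of the 9 genes is given; of them, array values are printed for called or separated probes and otherwise for each gene's brightest probe, with further ones where useful. From the partner lists, genes called by limma are named, and others only where the text says so. Alternatives covered background correction, scaling, the deposited matrix, the filter, moderation, blocks for slide and replicate number, the median over a gene's probes, and each array left out. A strain difference in the sequence under a probe and one in transcript level cannot be told apart.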

Additional observations from a re-analysis of the deposited data

Results flagged for a closer look

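The Cntnap2 probe A_51_P260850 read 10.22 on the array of BTBR mouse 2, away from the other 3 BTBR arrays, of which the nearest read 9.93. Its gap to them was 0.899 of the whole BTBR range. It was the only one of 30 sets of 4 arrays (15 probes in 2 strains) to stand apart in this way, and chance alone would mark about 1 in 20. Without that mouse the difference of this probe was 0.09 in place of 0.17 (limma adjusted p = 0.659). The array of BTBR mouse 2 also held the highest striatal marker level, and the part of those genes in this value was not tested.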

How the results depend on the processing

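The count of called member probes was 0 in each direction under every alternative but 1: without BTBR replicate 4, Lrrtm1 was called lower at -0.60, so the count of lower calls ran from 0 to 1 with 1 array left out. Over all probes tested, the share called by limma ran from 4.23% to 8.32% over the alternatives fitted to probes. With the replicate block 0 members were called, Lrrtm1 at a limma adjusted p of 0.117, and calls over all probes were 1650 in place of 2129. Same-numbered arrays of the strains correlated at -0.142, 0.51, -0.101 and 0.39 in their deviations. For numbers 2 and 4, but not 1 and 3, the same-numbered array was the best match. These mixed values cannot settle whether the numbers pair the mice. The 2 called probes of the partner lists became 1 with the processed signal, without the filter and with detection required on all arrays, 3 with the deposited matrix (Kcna2 was added), 4 with slide as a block (C1ql2 and Cntn2 were added), and 1 to 7 with 1 array left out, 7 without BTBR replicate 4. Lrrtm4 was called in all of these except with detection required on all arrays, where it is not tested. Cadm3 was called in 1 of the 8 fits with 1 array left out. With median centring and with the replicate block the count stayed 2, but C1ql2 was called and Cadm3 was not.

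Signs near 0 turned. Median centring gave -0.018 for Lrrtm3 and -0.060 and -0.0055 for Nrxn2 (A_51_P431831, A_51_P431827), and the processed signal gave -0.310 for Lrrtm3 and -0.020 for Nrxn2 A_51_P431831. With 1 array left out the range was -0.066 to 0.077 for Cntnap2 A_52_P215750, -0.00088 to 0.23 for Lrrtm2 A_52_P109516, -0.28 to 0.23 for Lrrtm3, -0.17 to 0.063 for Nlgn2, -0.021 to 0.12 for Nrxn2 A_51_P431827 and -0.093 to 0.061 for A_51_P431831. Without BTBR mice 1 and 2 together, a choice made after seeing the data that leaves BTBR on slide 2 alone, values were -0.062 for Lrrtm2 A_52_P109516, -0.54 for Lrrtm3, -0.147 and -0.053 for Nrxn2, and 0.010 for Nlgn3. With B6 mouse 2 left out as well they were -0.061 for Lrrtm2, -0.432 for Lrrtm3 and -0.104 and -0.016 for Nrxn2. The cause was not tested. The dim Nlgn1 probe A_52_P497105, close to background, limits what can be said of its transcript.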
